A study of Mus musculus with 12 samples.

Results

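Distal intergenic regions are stretches of chromatin that the table's annotation places outside genes and away from gene starts and that carry acetylation of histone H3 at lysine 27 (H3K27ac). They were taken as every region of the deposited table whose annotation reads distal intergenic, after repeated positions were dropped, and number 6445 of 36387 regions (17.7%). The annotation gives 2307 names of nearest genes, on 18 autosomes and the X chromosome, and chromosome 16 was not analysed here. The libraries came from mouse liver 2 days after a 70% partial hepatectomy, an operation after which the remaining liver regrows. All mice carried a floxed Cox10 allele, and Cox10 encodes an enzyme of heme A synthesis that cytochrome c oxidase needs. Mice of the Cox10-/- group had received an AAV8 virus with Cre recombinase by retroorbital injection 4 weeks before surgery, and mice of the wild-type group an AAV8 virus with GFP. Neither the promoter that drives Cre nor the age or sex of the mice is given in the labels. There were 3 H3K27ac libraries per genotype, and the 6 input libraries were not used here. Replicates are numbered, but whether they were separate animals is not stated, so p-values measure the spread between these libraries, which may be technical.

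H3K27ac is laid down by the acetyltransferases p300 and CBP and marks promoters and enhancers in use. Away from promoters it is the usual sign of an active enhancer, a stretch of DNA bound by transcription factors that can raise the transcription of a gene at a distance. In liver, enhancers are bound by factors such as HNF4A, FOXA and C/EBP proteins, and dense groups of them flank genes of hepatocyte function. A gene named here is the nearest one in the table's annotation, which need not be the gene on which a region acts.

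The annotation was checked against RefSeq genes of the same build. Of the 6445 regions, 607 overlapped a RefSeq protein-coding gene, 1870 overlapped a RefSeq gene of any kind, and 123 held a RefSeq start site. The label intergenic therefore follows the annotation used for the table and not every gene model. Widths ran between 183 and 4208 bases with a median of 398, and the median distance to the nearest start site was 12.6 kb. Start sites were those of RefSeq together with the table's own promoter regions. The 223 distal regions of chromosome 18 had no RefSeq start site to measure from. Their distances come from the promoter regions alone, and they could not count among the 123.

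Start sites inside distal regions differed in sequence from those inside promoter regions. The 143 RefSeq windows of 300 bases around such starts were 73.4% those of long non-coding RNAs, against 13.4% of 3522 windows in promoter regions. Their median ratio of observed to expected CpG was 0.275, against 0.793 in promoter regions and 0.384 over all 32851 windows, and their median GC content was 51.3%, against 62.0% and 52.7%. The letters TGTTTNC, a FOXA-like motif, occurred on either strand in 30.8% of the windows in distal regions, against 14.5% in promoter regions and 20.5% over all windows. An AP-1 motif, TGANTCA, occurred in 12.6% of them, against 4.40% and 7.81%. The shares for TTGCNNAA, a C/EBP motif, were 16.1%, against 8.01% and 10.8%. Letters of NRF2 (10.5%, against 14.4% and 12.4%), ATF/CREB (0.699%, against 2.64% and 1.79%) and HNF1 motifs (0%, against 0.596% and 0.801%) were less frequent. Those of C/EBP-ATF, HNF4A, HSF and STAT motifs were more frequent than in either other set, and E-box and TEAD letters lay between the 2. Only 2 of the 143 windows held HNF4A letters, 1 held ATF/CREB letters and 0 held HNF1 letters. These 3 counts are too small to give a direction. Shares were not adjusted for GC content or for the kind of gene. The annotation that defines the class sets its own gene starts apart, so the starts left inside it are a selected set. The differences in kind of gene and in sequence can follow from that selection, which was not tested. The 143 windows came from 123 regions. Windows of alternative starts of a gene can overlap, so some bases were counted more than once. Letters of several motifs can overlap, a match is not a bound site, and no sequence of the other distal regions was read.

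The sequences that follow are the parts of RefSeq start-site windows (GRCm38.p6) that lie inside distal regions. They show the start sites in 2 regions that fell, in 2 that rose and in the widest region, which was not called. Each is given 5′ to 3′ on the strand of its gene, and capitals mark letters of a searched motif (FOXA, C/EBP-ATF or TEAD, whose letters are TGTTTNC, TGATGNAA and CATTCCA, and for the last sequence HSF, GAANNTTC). A sequence in lower case throughout held none of the 12 motifs searched.
Gm32913, chr14:86422519-86422818, minus strand: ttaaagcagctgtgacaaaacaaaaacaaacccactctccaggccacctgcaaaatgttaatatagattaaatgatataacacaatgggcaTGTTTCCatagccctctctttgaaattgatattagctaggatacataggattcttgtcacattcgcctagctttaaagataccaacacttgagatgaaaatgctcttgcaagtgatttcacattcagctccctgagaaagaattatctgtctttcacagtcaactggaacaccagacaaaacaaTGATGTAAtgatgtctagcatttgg
Gm35287, chr2:25478138-25478418, minus strand: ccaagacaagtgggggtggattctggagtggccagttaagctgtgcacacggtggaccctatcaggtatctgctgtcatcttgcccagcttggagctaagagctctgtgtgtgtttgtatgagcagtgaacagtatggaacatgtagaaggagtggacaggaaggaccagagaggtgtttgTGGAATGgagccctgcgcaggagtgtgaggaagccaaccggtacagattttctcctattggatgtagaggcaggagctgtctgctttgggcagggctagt
3830432H09Rik, chr1:119536116-119536308, minus strand: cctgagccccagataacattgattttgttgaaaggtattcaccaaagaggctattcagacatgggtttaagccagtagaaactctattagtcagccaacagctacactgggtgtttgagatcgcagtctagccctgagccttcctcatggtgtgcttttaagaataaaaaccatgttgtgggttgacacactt
Gm37406, chr1:181061876-181062104, plus strand: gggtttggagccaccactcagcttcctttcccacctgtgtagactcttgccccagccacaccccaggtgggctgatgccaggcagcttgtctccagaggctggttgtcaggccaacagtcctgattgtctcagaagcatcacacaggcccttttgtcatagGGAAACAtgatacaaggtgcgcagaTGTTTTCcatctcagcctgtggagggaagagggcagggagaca
A630001O12Rik, chr8:126848770-126849069, plus strand: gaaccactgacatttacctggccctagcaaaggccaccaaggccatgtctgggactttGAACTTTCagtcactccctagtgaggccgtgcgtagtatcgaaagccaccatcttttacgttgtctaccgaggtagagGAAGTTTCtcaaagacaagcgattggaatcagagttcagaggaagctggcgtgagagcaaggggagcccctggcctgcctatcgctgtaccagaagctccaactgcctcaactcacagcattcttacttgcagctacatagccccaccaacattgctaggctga

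The region around the start of Gm32913 held 11.05, 6.46 and 10.6 normalised reads in the Cox10-/- libraries, against 138, 125 and 165 in the wild-type libraries. At 3830432H09Rik the order was the other way: 85.0, 88.8 and 74.2 normalised reads in Cox10-/- libraries, against 7.98, 5.48 and 8.95 in wild type. The region of A630001O12Rik, 4208 bases wide and the widest of all distal regions, held 789, 778 and 752 in Cox10-/- and 759.6, 761 and 805 in wild type, and its groups overlapped. These 3 regions thus span a deep fall, a steep rise and no call. Log2 fold changes (Cox10-/- over wild type) were -3.81 at Gm32913 (SE 0.216, limma adjusted p = 1.10e-42) and 3.32 at 3830432H09Rik (SE 0.266, limma adjusted p = 1.63e-26). The changes at Gm35287 and Gm37406 were -3.26 and 1.77.

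Normalised reads are reads per region divided by 1 size factor per library, as the authors deposited them. The regions held 3302556, 3385453 and 3282878 reads in the Cox10-/- libraries and 4138459, 3897454 and 4187377 in the wild-type libraries. Of these, 445592, 452232 and 437919 fell in distal regions in Cox10-/- and 592451, 560338 and 603467 in wild type. Size factors were 1.18 to 1.32 in Cox10-/- and 0.730 to 0.782 in wild type, so the deposited scale itself sets part of the difference between genotypes. The median log2 fold change of all regions was -1.04 on the deposited scale and 0.012 once every library was centred on the median of its regions, and centred calls are given beside counts of calls for the class, gene lists and groups of regions. In whole liver, fewer cells of a type and less acetylation per cell cannot be told apart. The deleted gene had no distal region. Its single region, in an intron, held 57.4 ± 10.3 normalised reads in Cox10-/- and 15.1 ± 2.54 in wild type (SD, n = 3), and acetylation there does not check the deletion.

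Distal regions as a class held less normalised signal in Cox10-/- liver. Their summed signal was 378660.2, 364982 and 331778 normalised reads in the Cox10-/- libraries, against 788142, 767425.5 and 771289 in the wild-type libraries. No Cox10-/- library came near a wild-type one. The ratio of the means was 0.462 (exact permutation test over libraries, two-sided, p = 0.1, the smallest that 3 against 3 libraries allow). Of the 6445 regions, 5364 (83.2%) were lower in Cox10-/- at a limma adjusted p under 0.05, against 87.2% of all regions. In the other direction 445 (6.90%) were higher, against 4.46% of all regions, and 636 were not called. The median log2 fold change was -1.23, a 2.35-fold lower signal, with quartiles at -1.85 and -0.65, against -1.04 over all regions. By their library values alone, 5328 distal regions (82.7%) had every Cox10-/- library below every wild-type one, against 86.4% of all regions, and 443 (6.87%) had every one above, against 4.44%.

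Relative to the median region of each library the picture was more even. On the centred scale 2698 distal regions (41.9%) were lower and 1856 (28.8%) higher, against 32.4% and 33.6% of all regions. In the authors' deposited table, 5216 distal regions (80.9%) were lower and 366 (5.68%) higher at an adjusted p under 0.05, against 84.8% and 3.58% of all regions.

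Large changes in either direction were found among them. At least 4-fold lower were 1280 (19.9%), against 12.8% of all regions. At least 2-fold higher were 215 (3.34%), against 1.99% of all regions, and at least 4-fold higher were 49 (0.760%), against 0.514% of all regions. The SD of log2 fold changes over distal regions was 1.02, against 0.592 over the 15980 promoter regions within 1 kb of a start and 1.01 over the 8953 intronic regions. Promoters had a median log2 fold change of -0.87 and 1.26% called higher, and introns -1.28 and 8.06%. The 95th percentile of log2 fold changes was 0.64 in distal regions, 0.77 in introns and -0.17 in promoters. The 5th percentile was -2.73, -2.50 and -2.04 in the same order. Large rises were thus not particular to distal regions.

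**Figure D1:**
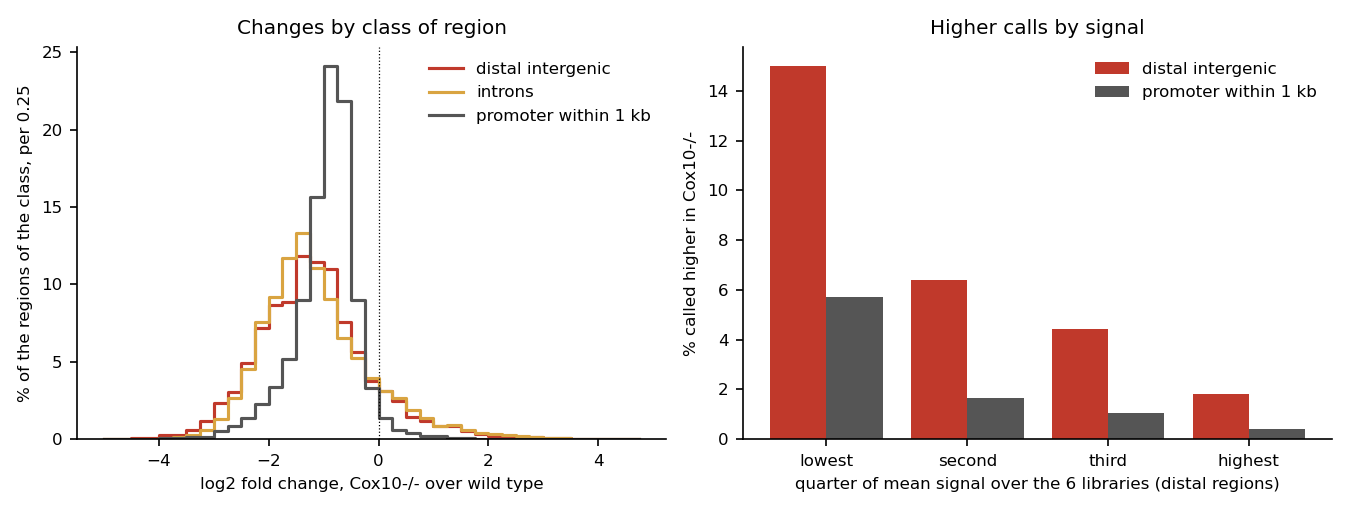
Left, the percentage of regions per 0.25 of log2 fold change (Cox10-/- over wild type) for distal intergenic regions, introns and promoters; right, the percentage called higher in Cox10-/- in 4 equal classes of mean signal, for distal regions and for promoters in the same ranges of signal. Distal regions spread as widely as introns and more widely than promoters. On the deposited scale 15.01% of the distal regions of lowest signal were called higher, against 1.80% of those of highest signal. Centred, these shares were 31.1% and 30.5%.

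Within each library, distal regions stood further below promoters in Cox10-/- than in wild type. The median level of distal regions minus that of promoters was -0.87, -0.89 and -0.87 on the log2 scale in Cox10-/- libraries, against -0.69, -0.67 and -0.64 in wild type. The groups did not overlap, and the difference was -0.21 (exact permutation test, two-sided, p = 0.1, the smallest possible). The share of all normalised reads that fell in distal regions was 13.4% ± 0.0834 in Cox10-/- and 14.4% ± 0.0485 in wild type (SD, n = 3), while promoters took 60.3% ± 0.171 and 56.7% ± 0.243. Against introns the groups overlapped: distal minus intron was 0.12, 0.15 and 0.15 in Cox10-/- and 0.11, 0.12 and 0.13 in wild type, a difference of 0.020 (exact permutation test, two-sided, p = 0.2). The share does not depend on the size factors, and the log2 differences depend on them only through the pseudocount.

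**Figure D2:**
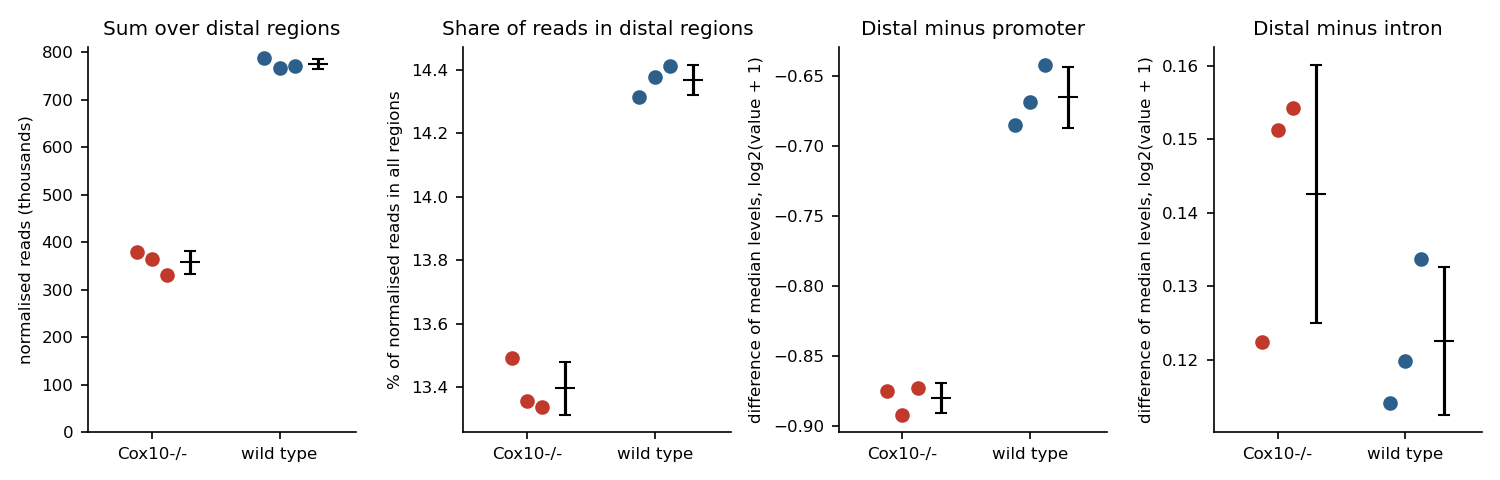
Each point is 1 library, with the mean and SD of 3 libraries beside it: the sum of normalised reads in distal intergenic regions, their share of normalised reads in all regions, and the median level of distal regions minus that of promoters and of introns on the log2(value + 1) scale. The 3 Cox10-/- libraries lie below the 3 wild-type libraries in the first 3 panels and overlap them in the last; only the first axis starts at 0.

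On the deposited scale, weak regions rose more often than strong ones. When distal regions were split in 4 equal classes by mean signal over all 6 libraries, 15.01% of the weakest were higher in Cox10-/-, then 6.39% and 4.41%, and 1.80% of the strongest. Promoters in the same ranges of signal gave 5.70%, 1.66%, 1.07% and 0.412%. On the centred scale the trend was absent in distal regions, with 31.1%, 26.7%, 26.9% and 30.5% higher. Promoters ran the other way there, with 26.7%, 28.3%, 37.7% and 51.6%. Regions of at least 2000 bases numbered 63, of which 61 were lower, 1 higher and 1 not called (centred, 21 lower and 24 higher). This split uses the mean of both genotypes and is a description.

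The median change had no steady trend with distance from a start site, and the trend in calls depended on the scale. The share called higher was 5.69% in the 123 regions that hold a RefSeq start, 5.40% in 908 within 3 kb, 5.74% in 1759 at 3 to 10 kb, 7.32% in 2829 at 10 to 50 kb, 8.85% in 531 at 50 to 100 kb and 11.5% in 295 farther away. On the centred scale the shares called higher were 45.5%, 30.9%, 26.1%, 28.6%, 26.6% and 36.9% in the same order. They did not rise steadily with distance. The median log2 fold change on the deposited scale was -0.89 where a start lay inside and between -1.12 and -1.30 in the other bins. The SD of log2 fold changes was 0.917 where a start lay inside and 1.25 in the farthest bin. Regions at 50 kb or more had a median level 0.05 below that of nearer ones in Cox10-/- and 0.07 below in wild type (log2 scale; exact permutation test, two-sided, p = 0.6), a difference smaller than the spread between libraries.

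The deepest falls among regions of at least median signal left few reads in Cox10-/- liver. The region nearest Ctnnd2, a catenin gene, on chr15:31062519-31063716 held 11.05, 12.1 and 8.33 normalised reads in Cox10-/-, against 318, 255 and 311 in wild type. That was 25.8-fold lower on the log2(value + 1) scale (log2 fold change -4.69, SE 0.173, limma adjusted p = 9.87e-70). Nearest Mup-ps21, a pseudogene of the major urinary proteins that mouse hepatocytes secrete, a region held 13.6, 16.9 and 16.7 in Cox10-/-, against 305, 266 and 308 in wild type. Regions with a change of 16.2-fold and 15.4-fold lay nearest Ubl7 and Lancl1. A region nearest Ppp1r3b, which targets protein phosphatase 1 to glycogen, held 9.35, 13.7 and 4.55 in Cox10-/-, against 133, 129 and 144 in wild type. The other 5 of these 10 lay nearest Apba2, Apol8, Srbd1, Dhrs7 and Cbx8, with log2 fold changes between -3.71 and -3.43. By RefSeq, the Mup-ps21 region overlapped the coding gene Mup20, and the Apol8 region overlapped Apol8. The Srbd1 region lay 0.067 kb from a start site. In all 10 every Cox10-/- library lay below every wild-type one, and all 10 remained lower on the centred scale.

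On the deposited scale, the largest rises by the same rule were smaller. Centred, log2 fold changes were 3.36 nearest Nln and 3.28 nearest Swap70, against -3.64 nearest Ctnnd2 and -3.08 nearest Mup-ps21. The rule asks for a minimum mean signal over both genotypes, so it leaves out changes of weak regions in either direction. One such rise was 8.08-fold, nearest Slc2a1. The region nearest Nln, which encodes the peptidase neurolysin, held 147, 115 and 127 normalised reads in Cox10-/-, against 18.6, 26.0 and 33.2 in wild type (log2 fold change 2.31, SE 0.174, limma adjusted p = 5.07e-29). Next came regions nearest Swap70 (4.68-fold) and Gc, the vitamin D-binding protein of plasma (3.46-fold). Gc was nearest to 7 distal regions in all, 4 lower and 3 higher, with summed signals of 362 ± 24.1 in Cox10-/- and 591 ± 23.4 in wild type (SD, n = 3). Nearest Plin2, a coat protein of lipid droplets, 1 region held 127, 134 and 114 in Cox10-/-, against 45.2, 35.6 and 44.7 in wild type, 2.94-fold higher. Nearest Psat1, an enzyme of serine synthesis, values were 114, 97.7 and 91.7 in Cox10-/-, against 31.9, 37.0 and 38.3 in wild type. A wide region of 2151 bases nearest Pdk4, a kinase that turns off pyruvate dehydrogenase, held 391, 335 and 308 in Cox10-/-, against 119.7, 133 and 152 in wild type (log2 fold change 1.35, SE 0.104, limma adjusted p = 5.32e-28). The remaining rises lay nearest Pvt1, a long non-coding RNA gene beside Myc, and Copb1, Usp12 and Cfap53, between 2.61-fold and 2.90-fold. The Swap70 and Usp12 regions lay 0.1 and 0.203 kb from a start site. No Cox10-/- library overlapped a wild-type one in any of the 10.

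**Figure D3:**
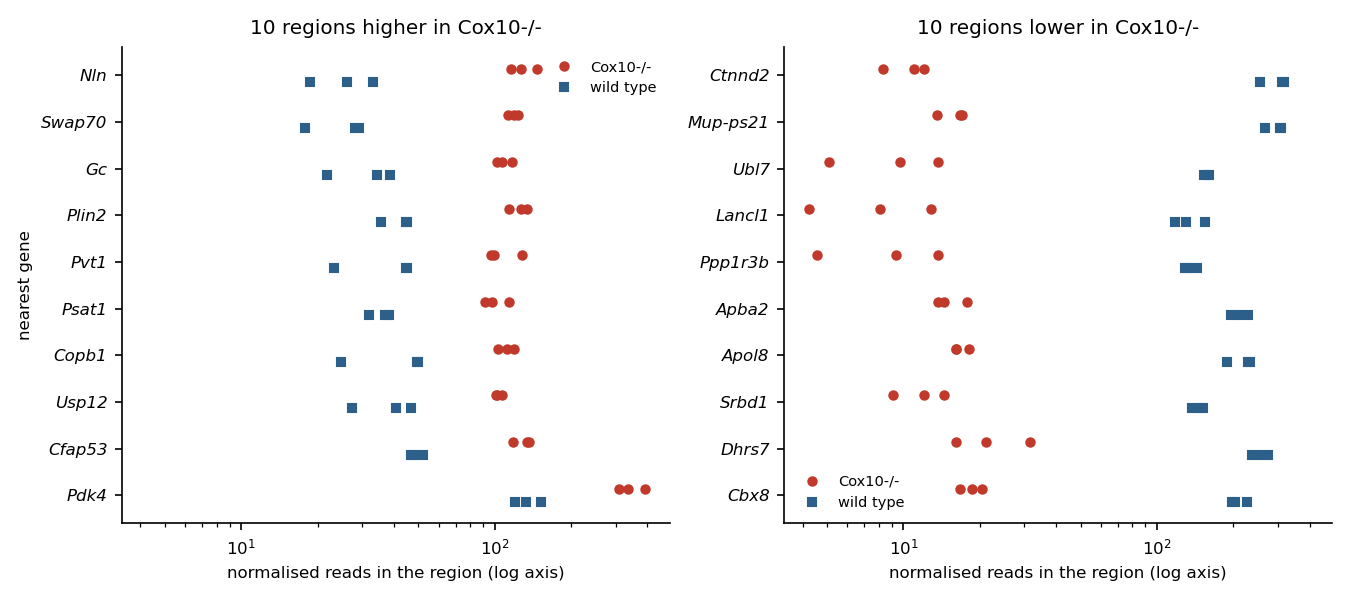
Normalised reads (log axis) of the 10 distal regions with the largest rise and the 10 with the largest fall among regions of at least median signal, 1 per nearest gene, with circles for the 3 Cox10-/- and squares for the 3 wild-type libraries. Genotypes do not overlap in any of the 20 regions; they were picked for their change, so the gap itself is no test.

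Of the 6 distal regions of highest signal, 5 were lower and 1 was not called. The highest, on chr4:150705004-150709166 nearest the predicted gene Gm16079, held 846, 885 and 787 normalised reads in Cox10-/-, against 1682, 1627 and 1626 in wild type (1.96-fold lower, limma adjusted p = 5.28e-34). Regions nearest Gm14319, Gm8444, Gm13049 and Gm13833 were 1.78-fold, 2.23-fold, 1.96-fold and 2.08-fold lower. The wide region nearest Tomm20, a receptor of the mitochondrial outer membrane for imported proteins, held 773 ± 19.4 in Cox10-/- and 775 ± 25.8 in wild type (SD, n = 3) and was not called (limma adjusted p = 0.955). It is the region that holds the start of A630001O12Rik printed above. On the centred scale it was higher by 1.05 (log2), and the regions nearest Gm16079, Gm14319 and Gm13049 changed direction there, to 0.082, 0.22 and 0.081.

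Some genes were nearest to many distal regions. Tomm20 had the most, 39 regions over 155 kb, of which 25 were lower, 6 higher and 8 not called (centred, 4 lower and 23 higher), with a summed signal of 5457 ± 355 normalised reads in Cox10-/- and 8801 ± 211 in wild type (SD, n = 3). Irf2bp2 and St3gal1 had 27 each. For St3gal1, a sialyltransferase gene, 14 were lower, 6 higher and 7 not called, and on the centred scale none was lower and 19 were higher. Nearest Rreb1, a zinc finger factor, all 23 were lower (centred, 15 lower and 1 higher), with sums of 1246 ± 97.3 in Cox10-/- and 3565 ± 65.5 in wild type. Minpp1, Mirlet7c-2 and Rad51b had 20 each. Of 362 genes with at least 5 distal regions, 216 had every region lower, 65 had both lower and higher ones, and 21 had more higher than lower. On the centred scale these counts were 49, 122 and 133.

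Neighbouring distal regions changed alike. The log2 fold changes of adjacent regions under 2 kb apart correlated at r = 0.87 across 3156 pairs, at 50 to 200 kb at r = 0.19 across 530 pairs and beyond 200 kb at r = 0.07 across 1394 pairs. These are descriptions across pairs that share the same 6 libraries, and adjacent regions can be pieces of 1 acetylated stretch. Groups of at least 4 regions, joined at the gap commonly used to stitch super-enhancers, numbered 486 and took in 3090 regions (47.9%). In 314 of them every region was lower, 68 held both lower and higher regions, and 25 held more higher than lower ones, while on the centred scale these counts were 90, 116 and 175. On the deposited scale, the summed signal was below wild type in every Cox10-/- library in 451 groups and above it in 18. These counts are to be read beside the ratio of 0.496 for the sum over all regions. Of all single regions, 86.4% had every Cox10-/- library below every wild-type one and 4.44% every one above. Sums of groups were not compared on the centred scale.

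Of the 7 groups of highest signal, all had more lower than higher regions on the deposited scale, and 3 had more higher ones on the centred scale. Nearest Gm13421, with Wdr5 the nearest coding gene, 19 regions over 48.4 kb held 2944, 2819.9 and 2436 normalised reads in Cox10-/-, against 7029, 6774 and 6670.4 in wild type, and all 19 were lower (centred, 11 lower and 1 higher). The 20 regions nearest Gm13833 and Gm13835 were all lower too, with a ratio of sums of 0.387 (centred, 9 lower and 1 higher). In the group at Tomm20 11 of 16 were lower, 1 was higher and 4 were not called, with a ratio of 0.666 (centred, 2 lower and 7 higher). In the group beside Mirlet7c-2 and Ppara 19 of 22 were lower, none was higher and 3 were not called, with a ratio of 0.542 (centred, 2 lower and 10 higher). At St3gal1 12 of 21 were lower, 4 higher and 5 not called, with a ratio of 0.701 (centred, none lower and 14 higher). Beside Alb, the gene of serum albumin, 18 of 18 regions were lower, and sums were 1202.5, 1125 and 1007 in Cox10-/-, against 4488.5, 4179 and 4266 in wild type (ratio 0.258; centred, 13 lower and none higher). Beside Hnf4a, a master regulator of hepatocyte genes, 14 of 16 were lower and 2 not called (ratio 0.490; centred, 6 lower and 3 higher).

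Other groups moved further. The following were picked for their ratio and are described without a test over the group. In the group at Mup-ps20 and Mup-ps21 the 5 regions summed to 29.7, 53.3 and 32.6 normalised reads in Cox10-/-, against 624, 616 and 624 in wild type (ratio 0.0620). At Mycn, a MYC family gene, 5 of 5 regions were lower, with sums of 45.4 ± 11.9 in Cox10-/- and 399.8 ± 6.72 in wild type (SD, n = 3). Groups at Tcf3 and at Ptgds with Lcn12 had ratios of 0.0950 and 0.106. Every region of these 4 groups was also lower on the centred scale.

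In the opposite direction stood Slc2a1, the glucose transporter GLUT1. Its 4 regions within 4.66 kb summed to 173, 165 and 152 normalised reads in Cox10-/-, against 35.9, 32.9 and 23.0 in wild type, 5.34-fold higher by the sums, and all 4 were higher. The Slc2a1 promoter was lower on the deposited scale (log2 fold change -0.61), though above the median of -1.04 over all regions. At Azin1, which encodes an inhibitor of the antizyme that controls polyamine synthesis, 7 of 7 regions rose, with sums of 679, 643 and 599 in Cox10-/-, against 290.0, 266 and 275 in wild type, while 2 regions farther away and the Azin1 promoter (-0.99, close to the median of all regions) were lower. At Pdk4 all 4 regions of the group rose, 2.19-fold by the sums, and so did its promoter (1.27). A further distal region nearest Pdk4 was lower. At Klf6, an immediate early zinc finger factor, 4 of 4 rose, while outside the group 2 regions nearest Klf6 were lower and 2 not called, and all 8 together summed to 1014 ± 80.6 in Cox10-/- and 983 ± 53.3 in wild type (SD, n = 3). At Ifngr1, the interferon-gamma receptor, 5 of 6 rose and 1 was not called, and at Bhlhe40, a transcription factor of the clock, 3 of 4 rose and 1 was not called, with 1 lower and 1 uncalled region outside the group. Near Cd14 and E230025N22Rik 5 of 6 were higher and 1 lower.

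**Figure D4:**
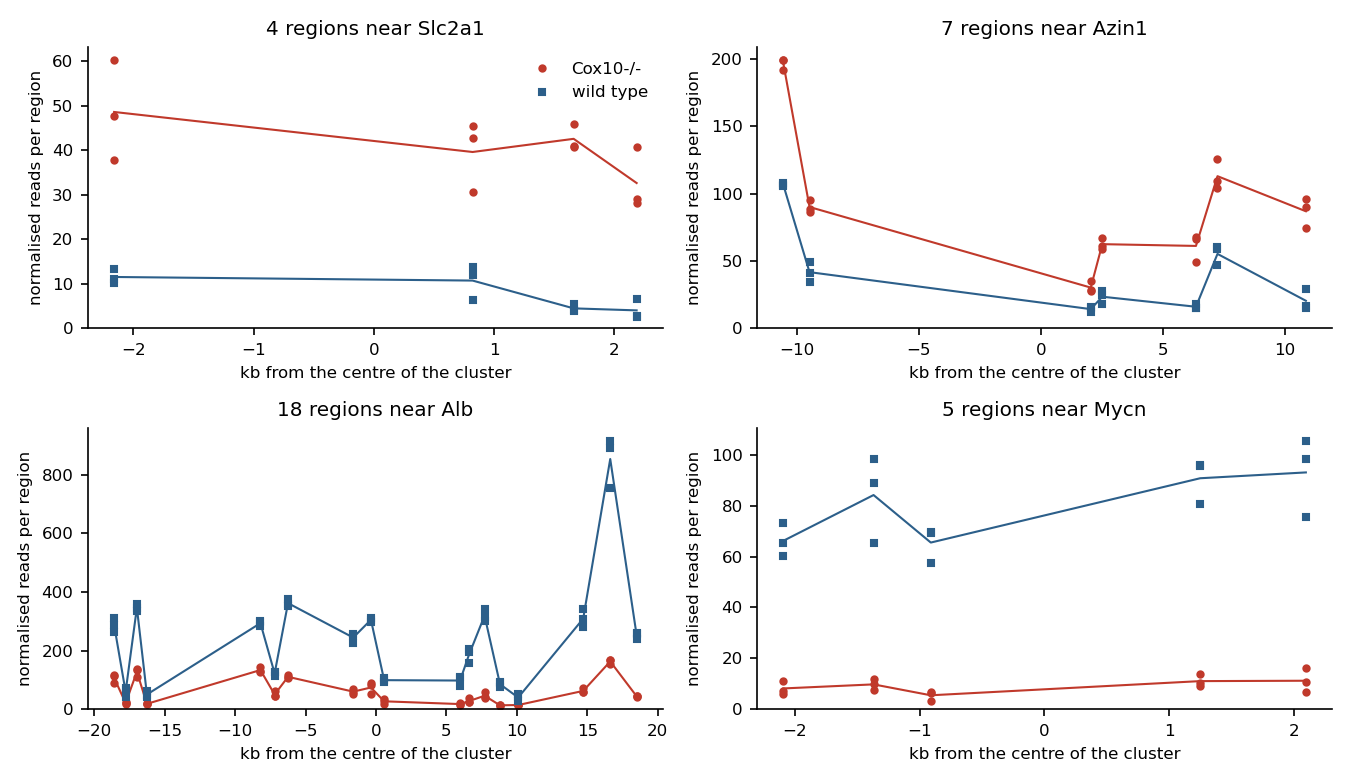
Normalised reads per distal region against distance in kb from the centre of its group of neighbouring regions, for groups near Slc2a1, Azin1, Alb and Mycn, with a point per library and a line through the mean of each genotype. The Cox10-/- libraries lie above wild type in every region at Slc2a1 and Azin1, and below in every region at Mycn and in all 18 at Alb.

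A distal region and the promoter of its nearest gene moved together only in part. For 1364 genes with both, the mean distal log2 fold change and that of the promoter correlated at r = 0.41 (Spearman 0.39) across genes, which share the same libraries. The median over genes of the level of distal regions minus that of the promoter was -1.84, -1.87 and -1.90 on the log2 scale in Cox10-/- and -1.69, -1.67 and -1.72 in wild type. The difference of -0.17 exceeded the spread between libraries (exact permutation test, two-sided, p = 0.1, the smallest possible). On the deposited scale, of 298 higher distal regions of these genes, 250 (83.9%) had a promoter that was lower and 16 (5.37%) one that was higher, against 95.9% and 1.11% of all 4054 distal regions of these genes. Of 3327 lower distal regions, 22 (0.661%) had a promoter that was higher. With promoters called on the centred scale, 23 of the 298 (7.72%) had a lower and 212 (71.1%) a higher one, against 27.7% and 43.4% of the 4054.

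Gene lists were compared by the calls of the distal regions nearest to their members, to be read beside 83.2% lower, 6.90% higher and a median of -1.23 over all distal regions. Single genes supplied many regions of some lists. Id2 gave 16 to the TGF-beta list, all lower, Gclc 15 to NRF2 targets and Nfkbia 15 to acute phase genes. Cebpa gave 15 to transcription factors, Gpam 14 to triglyceride synthesis, and Alb 16 to secreted proteins and to hepatocyte markers. Neighbouring regions changed alike, so regions of a list are not independent members. The lists of xenobiotic, urea cycle, gluconeogenesis, bile acid, secreted protein and hepatocyte transcription factor genes had medians below that of all distal regions, also on the centred scale, where that of all distal regions was -0.18. The shares called lower for secreted proteins (88.2%), bile acid genes (87.5%) and transcription factors (87.0%) were near the 87.2% of all regions. Of 81 regions nearest genes of xenobiotic metabolism, 80 were lower, none was higher and 1 was not called, with a median log2 fold change of -1.75 (centred, 57 lower and 4 higher). The region nearest Adh4, an alcohol dehydrogenase, held 64.6, 56.5 and 47.0 normalised reads in Cox10-/-, against 378, 290.4 and 303 in wild type, and that nearest Gstp1, a glutathione transferase, was 9.42-fold lower. All 44 regions nearest genes of the urea cycle and amino acid breakdown were lower (median -1.56; centred, 30 lower and 2 higher). Nearest Cps1, the entry enzyme of the urea cycle, values were 13.6, 17.8 and 16.7 in Cox10-/-, against 130, 141 and 128 in wild type (7.92-fold lower, limma adjusted p = 9.09e-37).

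Nearest genes of gluconeogenesis and glucose handling 46 of 47 regions were lower and 1 higher (median -1.48; centred, 27 lower and 7 higher). A region of 3727 bases nearest Pck1, which encodes the rate-limiting enzyme of gluconeogenesis, held 167, 132 and 132 normalised reads in Cox10-/-, against 1159, 1116 and 1123 in wild type (log2 fold change -2.98, SE 0.0863, limma adjusted p = 3.47e-87). The Pck1 region lay 0.19 kb from a start site. Regions named below nearest Egfr, Tgfb2, Ddit4 and Epo also lay within 1 kb of one. The single rise of the gluconeogenesis list lay nearest G6pc, at 45.7 ± 8.90 in Cox10-/- and 31.4 ± 3.19 in wild type (SD, n = 3). Bile acid and cholesterol genes had 35 of 40 lower, 1 higher and 4 not called (median -1.48; centred, 24 lower and 6 higher), with Cyp8b1, a sterol hydroxylase of bile acid synthesis, 5.39-fold and Slc10a1, the bile acid importer, 4.63-fold lower. Hepatocyte secreted proteins had 75 of 85 lower, 5 higher and 5 not called (median -1.35; centred, 39 lower and 20 higher). The main Alb region was at 163 ± 6.73 in Cox10-/- and 854 ± 86.0 in wild type, and Apob was 5.42-fold lower.

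Hepatocyte transcription factors had 60 of 69 regions lower, 3 higher and 6 not called (median -1.31; centred, 29 lower and 13 higher). Nearest Cebpa, which encodes C/EBP-alpha, 1 region held 201, 207 and 183 normalised reads in Cox10-/-, against 649, 571 and 671 in wild type. Onecut1 had a region 5.07-fold lower. The rises lay nearest Gata4 (46.7, 42.0 and 39.4 in Cox10-/-, against 17.3, 5.48 and 21.7 in wild type) and Gata6. Of the 2 GATA factors, Gata4 is also on the list of endothelial markers.

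The cell cycle list had the lowest median of the 17 lists. Of its 22 regions, 21 were lower, none was higher and 1 was not called (median -2.23; centred, 20 lower and 1 higher), but they lay nearest only 6 of 43 listed genes. Nearest Ccnd1, the cyclin that drives entry into S phase after hepatectomy, a region held 29.7, 29.1 and 24.2 normalised reads in Cox10-/-, against 265, 263 and 281 in wild type (9.47-fold lower, limma adjusted p = 7.93e-58). Nearest E2f7, an atypical E2F factor, values were 70.5, 75.1 and 70.5 in Cox10-/-, against 353, 419 and 422 in wild type. Immediate early and priming genes were mixed, with 60 of 85 lower, 10 higher and 15 not called (median -0.81), and the direction turned on the centred scale, with 18 lower and 39 higher (median 0.24). Egfr, the receptor for EGF, had a region 6.49-fold lower, and Il6st, the shared receptor subunit of IL-6 signals, had a region at 60.8 ± 7.66 in Cox10-/- and 18.9 ± 4.65 in wild type (SD, n = 3), 3.15-fold higher.

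**Figure D5:**
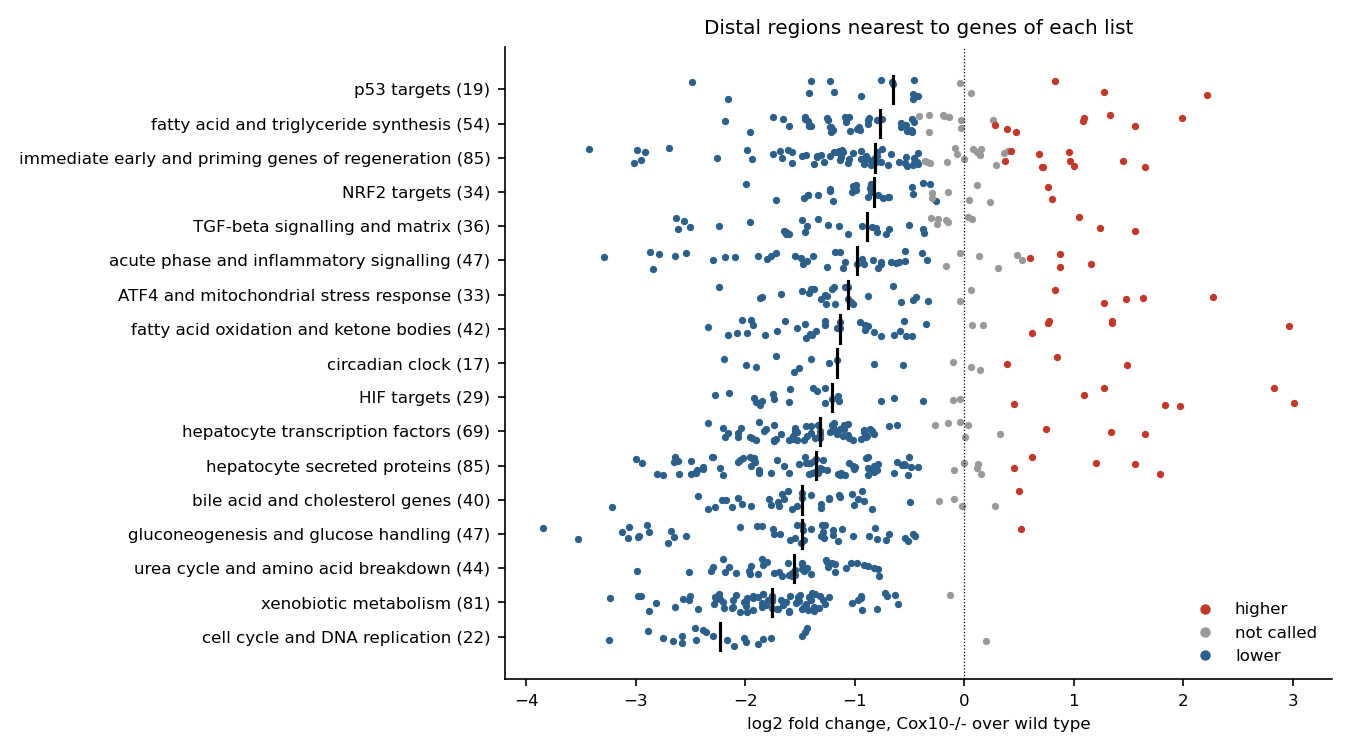
Log2 fold change (Cox10-/- over wild type) of each distal region nearest to a gene of each list, with the number of regions in parentheses, a black bar at the list's median and colours for the call; vertical scatter within a row is arbitrary. Medians run between -0.65 for p53 targets and -2.23 for cell cycle genes, so every median lies left of 0 on this deposited scale, while 6 of the 17 lie right of 0 when libraries are centred; some genes stand on several lists.

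Lipid and stress lists moved in both directions. Nearest genes of fatty acid and triglyceride synthesis 37 of 54 regions were lower, 8 higher and 9 not called (median -0.77), and the direction turned on the centred scale, with 7 lower and 26 higher (median 0.28). Apart from Plin2, a rise lay nearest Pparg, a lipogenic nuclear receptor, at 67.1, 79.9 and 69.7 normalised reads in Cox10-/-, against 42.6, 19.2 and 26.8 in wild type. Scd1 had a region 3.89-fold lower. Fatty acid oxidation and ketone body genes had 34 of 42 lower, 6 higher and 2 not called (centred, 12 lower and 14 higher), with Acadm 5.06-fold lower and Acot1, a thioesterase, 2.55-fold higher.

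For ATF4 and mitochondrial stress genes 26 of 33 regions were lower, 5 higher and 2 not called (median -1.06; centred, 6 lower and 13 higher). Nearest Nupr1, a stress-induced chromatin protein, values were 56.9, 45.2 and 52.3 in Cox10-/-, against 12.0, 12.3 and 6.39 in wild type (4.81-fold higher, limma adjusted p = 2.43e-13). HIF targets had 20 of 29 lower, 7 higher and 2 not called (median -1.21; centred, 10 lower and 12 higher), and 4 of the 7 were the Slc2a1 group. Nearest Epo, which encodes erythropoietin, a region was 4.43-fold lower, at 23.9 ± 1.44 in Cox10-/- and 109 ± 9.72 in wild type (SD, n = 3). p53 targets had 14 of 19 lower, 3 higher and 2 not called (median -0.65), which turned to 2 lower and 12 higher (median 0.40) on the centred scale. Mdm2, whose product degrades p53, had a small region of 207 bases that rose, at 30.2 ± 6.42 in Cox10-/- and 6.13 ± 2.94 in wild type (SD, n = 3). Ddit4, an inhibitor of mTORC1 that stands on the ATF4, p53 and HIF lists, had a region 2.42-fold higher. NRF2 targets had 26 of 34 lower, 2 higher and 6 not called (median -0.82), which turned to 3 lower and 16 higher (median 0.23) on the centred scale. Fth1, the ferritin heavy chain, had 1 region 1.67-fold lower, which turned to a rise of 0.32 (log2) when centred, and another 1.74-fold higher.

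Inflammatory, matrix and clock lists had medians between -0.89 and -1.16 on the deposited scale, and between -0.11 and 0.17 on the centred one. Acute phase and inflammatory genes had 37 of 47 regions lower, 4 higher and 6 not called (median -0.98; centred, 17 lower and 17 higher). Saa1, serum amyloid A, had a region 7.33-fold lower, and the chemokine gene Cxcl1 one that was 2.23-fold higher. TGF-beta and matrix genes had 26 of 36 lower, 3 higher and 7 not called (median -0.89; centred, 12 lower and 15 higher), with Id2 5.68-fold lower and Tgfb2 2.95-fold higher. Circadian clock genes had 11 of 17 lower, 3 higher and 3 not called (median -1.16; centred, 6 lower and 8 higher), with Nr1d1 2.24-fold lower.

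Markers of other liver cells had few distal regions. Macrophage and Kupffer cell markers had 7, nearest 3 of 18 genes, and 6 were lower and 1, nearest Cd14, was higher on either scale, with summed signals of 177 to 197 normalised reads in Cox10-/- and 740 to 815 in wild type. Endothelial markers had 4, of which the 2 nearest Lyve1 were lower (not called when centred) and the 2 nearest Gata4 higher, with sums of 134 to 175 in Cox10-/- and 177 to 206 in wild type. Stellate and ductal markers had 1 each, nearest Dcn (lower, not called when centred) and Epcam (not called, higher when centred), and markers of lymphocytes and neutrophils had none. Hepatocyte markers had 53, of which 51 were lower, none was higher and 2 were not called (median -1.57; centred, 32 lower and 4 higher). The part of cell composition in the changes of distal regions was not tested.

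Hairpins of microRNAs lay within 10 kb of 51 distal regions. They were 37 of 1005 hairpins with a RefSeq position, and of the 51 regions 42 (82.4%) were lower, 4 (7.84%) higher and 5 not called, against 83.2% lower and 6.90% higher among all distal regions. On the centred scale 21 were lower and 20 higher. The mature sequences below are a selection from these 37 hairpins, with the seed (bases 2 to 8) in capitals. Others, such as those of Mir192, Mir194-2 and Mir125a, are not shown.
miR-34a-5p: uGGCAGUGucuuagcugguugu
miR-23a-3p: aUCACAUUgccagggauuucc
miR-27a-3p: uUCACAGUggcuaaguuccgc
miR-24-3p: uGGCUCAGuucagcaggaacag
miR-21a-5p: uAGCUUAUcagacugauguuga
miR-193a-3p: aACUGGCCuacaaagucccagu
miR-365-3p: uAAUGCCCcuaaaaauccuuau
let-7a-5p: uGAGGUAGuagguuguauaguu
let-7d-5p: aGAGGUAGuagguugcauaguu
let-7c-5p: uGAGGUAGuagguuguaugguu
The let-7 members share the seed GAGGUAG, with let-7a-1 and let-7d on chromosome 13 and let-7c-2 on chromosome 15, and the other seeds shown differ from it and from each other.

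On the deposited scale, the single distal region beside Mir34a, a microRNA gene induced by p53, held 51.8, 41.2 and 31.8 normalised reads in Cox10-/-, against 17.3, 21.9 and 20.5 in wild type, and was higher (log2 fold change 1.01). Beside Mir23a, Mir27a and Mir24-2, which form 1 cluster, 1 of 3 regions was higher and 2 were not called. Their sums were 374 ± 43.9 in Cox10-/- and 307 ± 17.9 in wild type (SD, n = 3). Beside Mir21a, which is induced in regenerating liver, both regions were lower, with 552, 519.8 and 477 in Cox10-/-, against 962, 977 and 1019.9 in wild type. Log2 fold changes of these 2 regions were -1.09 and -0.92, near the median of -1.04 over all regions. Beside Mir193a and Mir365-2 all 3 were lower, with a ratio of sums of 0.253. Beside Mirlet7a-1 and Mirlet7f-1 all 3 were lower (ratio 0.562), and beside Mirlet7c-2 and Mirlet7b 1 of 2 was lower and 1 not called. The last 2 had log2 fold changes of -0.77 and -0.30, above the median of all regions. For the sum over all regions the ratio was 0.496. No microRNA was measured.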

How the data were processed

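H3K27ac was measured by chromatin immunoprecipitation and sequencing in 3 libraries per genotype. Spike-in chromatin was added per the labels' protocols. Per the submitters' processing notes the build was mm10 and the tools included deepTools 3.5.0, BWA 0.7.5 and MACS, with no step given for any of them. The authors deposited a signal per region (normalised reads), with log2 fold changes, a test score and p-values for Cox10-/- over wild type. Each signal value equalled whole reads divided by 1 size factor per library (100% whole within 0.01 reads), and the origin of these factors is not stated. Of 36446 listed regions, 59 repeats were dropped, 12 of them distal. Coordinates are as in the table, whose counting base is not stated.

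All 36387 regions were tested with limma 3.58.1 (R 4.3.3) on log2(value + 1), with a variance trend and no filter or block, and Benjamini-Hochberg adjustment over all regions at 0.05. Limma draws each variance towards a trend, and the pseudocount understates the change of low regions. The procedure was also tested on simulated data. Values per library were compared with exact permutation tests, which cannot go below p = 0.1. EdgeR 4.0.16 and DESeq2 1.42.0 were run on the recovered reads as alternatives; in this test edgeR with the deposited size factors called 5374 distal regions lower and 443 higher. Pairs of libraries of a genotype all differed by slightly more than sampling noise. Their chi-square values were 1.06 to 1.19 for each degree of freedom (highest p = 1.02e-16), against 10.2 to 10.6 between genotypes. This check cannot tell separate animals from technical replicates, because either can differ by more than sampling noise. For the tests, 3 libraries per genotype were counted.

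Regions were named by a rule: the 10 largest changes per direction of at least median signal, 1 per gene without predicted names; up to 2 per direction of each of 17 gene lists and of the marker lists, by smallest adjusted p; the 6 of highest signal; the genes with most regions; and the groups of highest signal. One gene that the rule names is not reported here. Start sites with a sequence, microRNA neighbours and groups with extreme ratios were chosen after their values were seen. The members, lists and tests were chosen with earlier results of these data known. RefSeq start-site windows and microRNAs come from GRCm38.p6, and a genome was not used here.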

Additional observations from a re-analysis of the deposited data

How the results depend on the processing

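The counts and the median of distal regions moved little under pseudocounts of 0.5 and 5, a minimum mean signal of 20, an adjusted p under 0.01, edgeR with the deposited size factors and the authors' deposited table, and they moved with the scaling. Lower and higher counts were 2698 and 1856 with libraries centred on their median region, 2778 and 1847 by edgeR with TMM, and 2407 and 1609 by DESeq2 with its own size factors, and the median log2 fold change became -0.18, -0.20 and -0.20. Restricting to regions at least 10 kb from a start site left 2993 lower and 288 higher of fewer regions. Leaving out 1 library at a time gave 5260 to 5352 lower, 386 to 446 higher and a median of -1.27 to -1.17. The gap to promoters ranged from -0.22 to -0.20, that to introns from 0.014 to 0.030, that to promoters of the same gene from -0.19 to -0.16, and the share of reads from -1.02 to -0.94 percentage points. With a pseudocount of 5 the gap to promoters of the same gene was -0.10 (-0.17 in the report), and with a minimum mean signal of 20 the gap to introns was 0.0012 (0.020 in the report). The comparison by 50 kb from a start site had no stable direction: it ranged from -0.00021 (without Cox10-/- replicate 1) to 0.022, and was -0.046 (exact permutation p = 0.1) with RefSeq start-site windows alone, an alternative chosen after seeing the data. Replicate numbers did not pair the libraries (correlations of same-numbered deviations between -0.001 and 0.007), and with the replicate block 5372 regions were lower and 446 higher, while the within-library differences kept their values with an exact sign-flip p of 0.25, the smallest possible (0.75 for the 50 kb comparison).

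Of 87 named regions under the alternatives, 24 of 1391 values changed sign, 18 lost and 3 gained a call. On the centred scale, with TMM and with DESeq2, the regions turned to 0.32, 0.31 and 0.31 at Fth1, 0.15, 0.12 and 0.12 at Dcn, 0.082, 0.083 and 0.086 at Gm16079, 0.22, 0.23 and 0.23 at Gm14319, 0.081, 0.081 and 0.084 at Gm13049, 1.05, 1.05 and 1.05 at Tomm20, and 0.28, 0.28 and 0.28 at the Gm25415 region on chromosome 14. Without 1 library, the uncalled Tomm20 region ranged from -0.020 to 0.023, above 0 without wild type replicate 3 or Cox10-/- replicate 3 (0.016), and the uncalled Gm25415 region from -0.043 (without wild type replicate 3) to 0.16. Regions with few reads are the least precise: 199 to 221 distal regions held fewer than 10 reads in a Cox10-/- library and 75 to 94 in a wild-type library.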

Other observations

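Among distal regions of at least median signal, 3 lay farthest from a start site. The region nearest Trps1, at 719 kb, held 45.9, 40.4 and 28.8 normalised reads in Cox10-/-, against 150, 166 and 142 in wild type (3.97-fold lower, limma adjusted p = 3.18e-28). Adjacent regions nearest Gm25415, with Pcdh20 the nearest coding gene, were called differently, and the difference between them was not tested. The first held 107 ± 6.30 in Cox10-/- and 183 ± 18.8 in wild type (SD, n = 3) and was lower, and the other held 69.4 ± 4.69 in Cox10-/- and 66.4 ± 9.31 in wild type and was not called (limma adjusted p = 0.671).

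By chromosome, the median log2 fold change of distal regions lay between -1.51 on X (48 regions) and -1.01 on chromosome 19 (250 regions). The share called higher was 10.0% on chromosome 19 and 9.73% on chromosome 9, against 3.96% on chromosome 14 and 4.17% on X. These shares are descriptions without a test, since regions of a chromosome share their neighbours' changes.

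Signal was slightly more concentrated in Cox10-/- liver. The strongest 1% of distal regions by mean signal held 6.81% ± 0.0560 of distal reads in Cox10-/- and 6.45% ± 0.0178 in wild type (SD, n = 3), and the groups did not overlap. Usp12 was nearest to 11 distal regions, of which 6 were higher, 5 not called and none lower, with sums of 1122, 1011 and 967 normalised reads in Cox10-/-, against 725, 731 and 827 in wild type. The Usp12 promoter was lower on the deposited scale (log2 fold change -0.40), though above the median of -1.04 over all regions. Swap70 was nearest to 3 regions, all higher, with sums of 234 ± 1.58 in Cox10-/- and 59.4 ± 7.89 in wild type (SD, n = 3), and its promoter was lower on the deposited scale (-0.70), also above that median.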
